A study of Drosophila melanogaster with 16 samples.

Results

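Female Drosophila midguts carrying RafGOF together with NotchDN were compared with wild-type midguts, on the 4 arrays titled for each group, 8 of the 16 arrays in the series. The arrays of both groups were taken by their titles alone, and all 18769 probe sets that are not Affymetrix controls were compared. The comparison and the gene lists were chosen with earlier results of these data known. RafGOF stands for Raf, a kinase, with a gain of function, and NotchDN for a dominant-negative receptor Notch, so the group differs from wild type by both alleles at once. The other 8 arrays hold RafGOF alone (4) and RafGOF with overexpressed NotchIC (4), the intracellular form of Notch that acts as the active receptor. They are used here to show where the NotchDN midguts differ from midguts that share RafGOF. Age, the promoter or cell type that drives the transgenes, the time of induction and the number of animals per array are not stated in the labels. Neither Raf nor Notch has a probe set that names it alone, which leaves the genotypes without a check on these arrays.

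In the adult fly midgut, intestinal stem cells divide to renew themselves and to give rise to absorptive enterocytes, which pass through an enteroblast stage, and to hormone-producing enteroendocrine cells. Raf relays signals from the epidermal growth factor receptor (EGFR) to the kinase ERK, which drives stem cells to divide. Delta on a stem cell activates Notch in its daughter and moves that daughter toward the enterocyte fate, so stem cells that lack Notch signalling are known to accumulate as dividing, stem-like cells and enteroendocrine cells.

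Values are log2 signals made by the RMA method, differences are NotchDN minus wild type on that scale unless another comparison is named, and an error after ± is the SE from limma with n = 4 arrays per group. A gene was called higher (or said to rise) or lower (or said to fall) at an adjusted p under 0.05 in limma. Median signal per array lay between 5.48 and 5.70. The arrays numbered 2 in all 4 groups stood apart from the rest, with scores of 0.411 to 0.445 on the first component of the deviations from the group means and -0.224 to -0.0347 elsewhere. Without these 4 arrays 14 named genes lost their call against wild type, and each is marked where it appears. Tissue is whole midgut, so fewer cells of a type and less RNA per cell cannot be told apart in any result.

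The midguts with RafGOF and NotchDN (NotchDN midguts for short) showed a rise of stem cell, DNA replication, mitosis and nucleolar genes. Digestive enzyme, cytochrome P450 and muscle genes fell. These shifts were not particular to them. Against the same wild-type arrays, RafGOF alone had 6 of 17 progenitor, 63 of 89 cell cycle and 12 of 23 ribosome biogenesis genes higher (14.9% of all genes). There 35 of 52 digestive enzyme, 33 of 61 P450 and 10 of 15 muscle genes were lower (10.1% of all genes). In all, 2095 probe sets were called higher (11.2% of those tested) and 1741 lower (9.28%). Of these, 695 (3.70%) were higher and 673 (3.59%) lower by at least 2-fold. Counted by gene, with 1 probe set for each of 11982 genes, 1755 were higher (14.6%) and 1447 lower (12.1%), and the median difference over all genes was -0.02. The shares of 14.6% and 12.1% are the background for the NotchDN list counts against wild type below in the main fit. With the replicate block, a fit that pairs arrays by their number, 2455 of the 11982 genes were higher and 2081 lower. Without the arrays numbered 2, 1815 were higher and 1359 lower. The 4 NotchDN arrays all lay above the 4 wild-type arrays for 1703 genes (14.2%) and all below them for 1528 (12.8%).

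**Figure D1:**
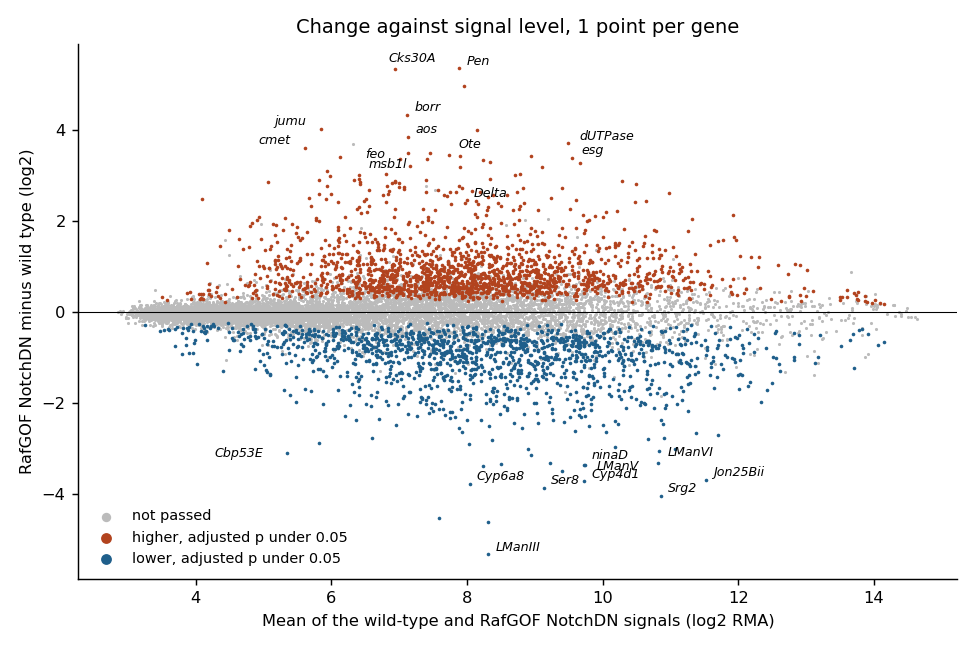
Difference between RafGOF NotchDN and wild type (log2, vertical) against the mean signal of both groups (log2 RMA, horizontal), 1 point per gene for 11982 genes. Points in red (1755) were called higher and points in blue (1447) lower, and labels mark esg, Delta and the 10 largest rises and 10 largest falls among called genes whose arrays did not overlap, leaving out genes known only by a CG number.

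Pen and Cks30A rose most. Pen, an importin alpha that carries proteins into the nucleus, read 5.27, 5.83, 4.98 and 4.76 on the wild-type arrays and 9.97, 11.48, 10.55 and 10.24 on the NotchDN arrays. Cks30A, a small subunit that binds cyclin-dependent kinases, read 4.57, 4.48, 4.06 and 3.99 in wild type and 9.39, 9.46, 9.77 and 9.84 with NotchDN. The groups lay far apart for both genes, and the lowest NotchDN array was above the highest wild-type array by several units. Pen rose by 5.35 ± 0.373, a 40.8-fold difference (adjusted p = 8.36e-08, limma), and Cks30A by 5.34 ± 0.209, a 40.5-fold difference (adjusted p = 7.09e-10, limma). Leaving out 2 genes known only by a CG number, the next largest rises were those of borr (4.33), the Borealin subunit of the chromosomal passenger complex, the forkhead-domain factor jumu (4.03) and aos (3.84), a secreted inhibitor of EGFR. Then followed dUTPase (3.70), which keeps uracil out of DNA, the kinesin cmet (3.61, CENP-meta), feo (3.50), which bundles microtubules of the central spindle, msb1l (3.48) and Ote (3.45), the nuclear lamina protein Otefin.

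The largest fall was that of LManIII, a gene of the lysosomal-type alpha-mannosidase family. Its signal was 10.55, 11.65, 10.99 and 10.69 in wild type and 5.32, 5.79, 4.88 and 6.63 with NotchDN, with no overlap, and it fell by 5.32 ± 0.578 (adjusted p = 6.70e-06, limma). Its relatives LManV (-3.31) and LManVI (-3.04) were among the 10 largest falls too, when 8 genes known only by a CG number are passed over. The others were Srg2 (-4.03), the serine protease gene Ser8 (-3.86), the cytochrome P450 genes Cyp6a8 (-3.76) and Cyp4d1 (-3.71), the protease gene Jon25Bii (-3.68), ninaD (-3.35), a scavenger receptor that takes up carotenoids, and the calcium-binding protein gene Cbp53E (-3.09). The call of ninaD rests on a wide spread, from 9.69 down to 5.61 over the NotchDN arrays, and was lost without NotchDN replicate 3 or 4 or wild-type replicate 1 or 2 (adjusted p up to 0.104, limma), and without the arrays numbered 2 (adjusted p = 0.0604).

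The genes that mark intestinal stem cells and enteroblasts were examined next. Of 17 measured progenitor genes 9 rose, 1 fell and 7 stayed short of the threshold, and the list median was 0.90. The transcription factor esg (escargot), which keeps stem cells and enteroblasts undifferentiated, read 7.65, 8.31, 7.87 and 7.61 in wild type and 10.77, 12.02, 11.34 and 10.83 with NotchDN. Delta, the Notch ligand of stem cells, read 6.98, 6.63, 6.85 and 6.60 in wild type and 8.32, 8.73, 10.02 and 9.81 with NotchDN. Every NotchDN array was above every wild-type array for both. The rise was 3.38 ± 0.312 for esg (adjusted p = 1.35e-06, limma) and 2.45 ± 0.324 for Delta (adjusted p = 4.08e-05, limma), and NotchDN replicates 3 and 4 were more than 1 unit above replicates 1 and 2 for Delta. A second Delta probe set, read at 5.87 to 6.54 in wild type and 8.61 to 9.89 with NotchDN, rose by 3.34.

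Among the other progenitor transcription factors, the SoxE factor Sox100B rose by 2.56, the zinc-finger homeodomain factor zfh2 by 1.81, Sox21a, which is needed for enteroblasts to differentiate, by 0.94 and the forkhead factor fkh by 0.90. The call of fkh was lost without NotchDN replicate 2, 3 or 4 or wild-type replicate 1 or 3 (adjusted p up to 0.0831, limma). The factors klu (0.26), chinmo (-0.18), GATAe (-0.07) and cnc (-0.17) did not pass. Of the genes of signalling and asymmetric division, spdo (sanpodo), a regulator of Notch trafficking, rose by 1.25, Egfr by 1.19 and dome, the JAK/STAT receptor, by 1.10. The call of dome was lost without the arrays numbered 2. The adaptor gene mira (miranda) fell by 1.29, and numb (-0.43), Pvr (-0.37) and Lgr3 (0.03) did not pass.

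The Notch targets were the genes of the E(spl) complex and the Bearded family with dpn and hry. Of 15 measured genes 3 rose, 0 fell and 12 stayed short of the threshold, and the list median was 0.04. Of all genes 14.6% were higher and 12.1% lower, so the share of rises was near that of all genes. E(spl)m3-HLH, a repressor that Notch induces, read 7.88, 7.18, 7.67 and 6.92 in wild type and 9.45, 9.82, 10.55 and 10.41 with NotchDN. The groups did not overlap, and the gene was 2.65 ± 0.248 higher in the midguts labelled as carrying dominant-negative Notch (adjusted p = 1.56e-06, limma). E(spl)malpha-BFM rose by 1.45 and E(spl)mbeta-HLH by 0.74. E(spl)m7-HLH was at -0.11, E(spl)mdelta-HLH at 0.09, E(spl)m5-HLH at 0.04, E(spl)m4-BFM at 0.11, E(spl)m2-BFM at -0.05, E(spl)m6-BFM at -0.21, dpn at 0.07 and hry at -0.17, and none of these passed. The Bearded-family genes Brd (-0.05), Tom (0.01), BobA (-0.05) and Ocho (0.05) did not pass either.

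Side by side, with the same wild-type arrays as the common reference, E(spl)mbeta-HLH was higher by 0.74 with NotchDN, by 1.24 in RafGOF alone and by 1.70 with NotchIC. E(spl)m3-HLH was higher by 2.65, 3.39 and 3.32 in the same order. Of the Notch targets 0 were called by limma between NotchDN and RafGOF alone, where 3 were lower and 0 higher at an unadjusted p under 0.05. With the replicate block 2 were called lower there, where 383 of all 11982 genes were. These were E(spl)mbeta-HLH (-0.50, adjusted p = 0.0415), whose NotchDN arrays all lay below the RafGOF arrays, and hry (-0.52, adjusted p = 0.0147), whose arrays overlapped. Against NotchIC, E(spl)mbeta-HLH was lower with NotchDN by 0.96 (adjusted p = 0.00293, limma) and E(spl)m7-HLH by 0.65 (adjusted p = 0.0395, limma). The call of E(spl)m7-HLH was lost in 6 of 8 fits that left out 1 array of these groups (adjusted p up to 0.135 without NotchIC replicate 3).

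Of 15 genes of the Notch pathway itself 6 rose, 1 fell and 8 did not pass. In order of their place in the pathway, the ligand Delta rose, as above. O-fut1, an O-fucosyltransferase that acts on Notch, rose by 2.74 ± 0.210 (adjusted p = 2.26e-07, limma), from 5.48 to 5.88 in wild type to 7.99 to 8.72 with NotchDN. The protease gene kuz, whose product cleaves ligand-bound Notch, rose by 1.95 and the glycosyltransferase gene fng (fringe) by 1.44. The ligand regulator neur was at 0.62 (adjusted p = 0.12, limma), the gamma-secretase genes Psn and pen-2 were at 0.60 and 0.00, and none of the 3 passed. With the replicate block, a fit that pairs arrays by their number, neur, Psn, numb, Nedd4 and dx passed. Of the nuclear factors and regulators, gro (groucho), a co-repressor, rose by 0.53 and spdo as above, while mam (0.18), H (-0.18), Nedd4 (-0.39) and dx (0.64) did not pass. A second H probe set was at 0.67 and passed. Su(dx), a ubiquitin ligase, was the gene that fell (-0.61), and 6 of the 8 arrays left out singly ended that call (adjusted p up to 0.164 without wild-type replicate 2).

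**Figure D2:**
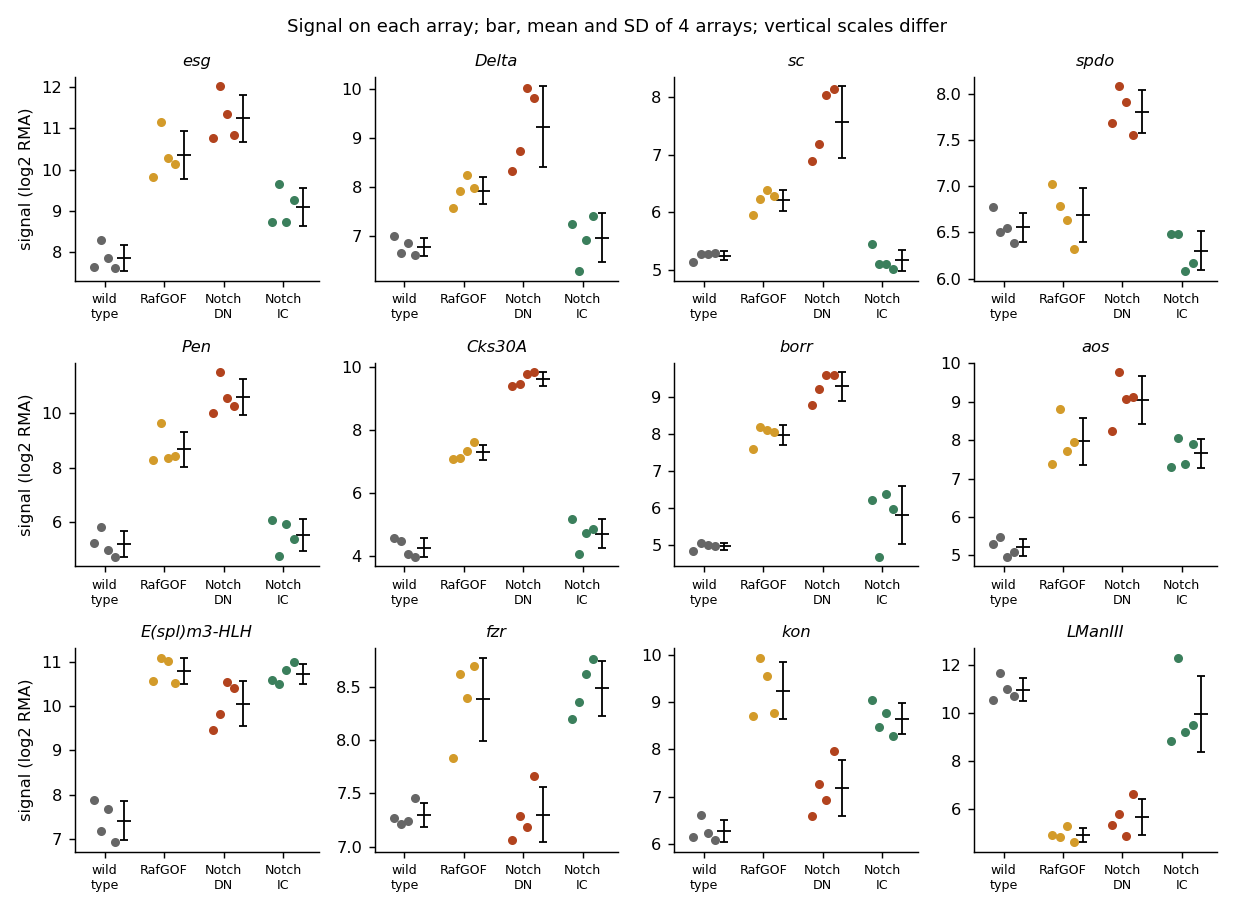
Signal (log2 RMA, vertical) of 12 genes on each of the 16 arrays, with the 4 groups along the horizontal axis (Notch DN and Notch IC stand for RafGOF with each Notch form), points in order of replicate number and bars giving mean and SD. For esg, Delta, sc, spdo, Pen, Cks30A and borr the NotchDN arrays lay above all wild-type arrays, fzr with NotchDN overlapped wild type, and LManIII was low with NotchDN and in RafGOF alone.

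Genes of the EGFR and Ras pathway, in which Raf acts, were counted in the same way. Of 19 measured genes 8 rose, 0 fell and 11 did not pass, against 14.6% of all genes higher and 12.1% lower. Against the same wild-type arrays 8 of the 19 were higher in RafGOF alone (14.9% of all genes) and 7 with NotchIC (9.98%). Of the ligands, spi (spitz) read 8.50 to 8.78 over the wild-type arrays and 10.31 to 11.06 over the NotchDN arrays and rose by 2.14 ± 0.180 (adjusted p = 5.30e-07, limma). Star (S), a gene of ligand processing, was at 0.92. Its call was ended by 6 of the 8 arrays left out singly (adjusted p up to 0.17 without NotchDN replicate 3) and was lost without the arrays numbered 2 (adjusted p = 0.0509). The ligands Krn (0.27) and grk (-0.34) did not pass. In the cascade the receptor Egfr rose by 1.19. The adaptor dos was at 0.72, and its call was lost without 5 of the 8 arrays (adjusted p up to 0.0896 without NotchDN replicate 2) and without the arrays numbered 2 (adjusted p = 0.104). The genes drk (0.34), Sos (0.07), csw (-0.30), ksr (0.02), cnk (0.36) and Dsor1 (-0.17), which encodes the kinase that Raf phosphorylates, did not pass, though Krn, drk and cnk passed with the replicate block.

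The feedback inhibitors and nuclear targets held most of the size. aos read 5.29, 5.49, 4.96 and 5.10 in wild type and 8.24, 9.78, 9.07 and 9.12 with NotchDN, with no overlap, and rose by 3.84 ± 0.314 (adjusted p = 4.22e-07, limma). edl rose by 2.33, Mkp3, a phosphatase of ERK, by 2.25 and sty (sprouty), an intracellular inhibitor, by 2.11. The repressors aop (-0.05) and cic (-0.09) and the receptor inhibitor kek1 (-0.05) did not pass. Of the pathway genes 0 were called by limma between NotchDN and RafGOF alone (3 higher and 1 lower at an unadjusted p under 0.05), where aos was at 1.09 (adjusted p = 0.159, limma) and at adjusted p = 0.00474 with the replicate block. With that block sty (0.71) and Egfr (0.77) were called higher there as well.

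Cell cycle genes rose broadly. Of 89 measured genes 73 rose, 1 fell and 15 did not pass, against 14.6% and 12.1% of all genes, and the list median was 1.33. The mean signal of the list was 6.09 to 6.32 over the wild-type arrays and 7.33 to 7.99 over the NotchDN arrays. Under the alternatives tried, between 69 and 76 of these genes were higher.

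Of 15 cyclin, Cdk and regulator genes 10 rose. Besides Cks30A these were led by CycB, the mitotic cyclin, at 3.18, CycE, which starts S phase, at 2.90 and fzy, the mitotic activator of the anaphase-promoting complex, at 2.68. A second probe set of fzy, near the floor of the array, gave -0.27 (adjusted p = 0.0952, limma). CycD (0.18), Cdk4 (0.03), twe (0.14), Rbf (0.36) and fzr (0.00) did not pass.

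Replication genes rose nearly throughout, at 27 of 30. Ts (thymidylate synthase) read 5.99, 6.22, 6.54 and 5.98 in wild type and 9.01, 9.82, 9.80 and 9.77 with NotchDN. PCNA, the sliding clamp of DNA polymerase, read 7.81, 7.23, 7.80 and 7.20 in wild type and 10.40, 10.54, 10.87 and 10.97 with NotchDN. Neither gene overlapped between the groups. The rise was 3.42 ± 0.198 for Ts and 3.18 ± 0.199 for PCNA, followed by RnrL (2.73), the large subunit of ribonucleotide reductase, and Mcm2 (2.67), a subunit of the replicative helicase. RPA1 (0.82), Psf2 (0.21) and Psf3 (-0.18) did not pass, though RPA1 passed with the replicate block.

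Of 15 genes of mitotic kinases, the passenger complex and chromosome separation 12 rose. borr read 4.82, 5.05, 4.99 and 4.96 in wild type and 8.77, 9.20, 9.58 and 9.59 with NotchDN. pim (pimples, the fly securin) rose by 3.11. With borr, the other members of the passenger complex rose too, Incenp by 3.04, aurB, the Aurora B kinase, by 2.85 and Det by 2.38. Spindle, kinetochore and condensin genes rose at 18 of 22, led by Nuf2 (2.98), a kinetochore subunit, the kinesin ncd (2.76), the kinetochore protein gene Spc105R (2.33) and the kinesin Klp61F (2.26). Of 7 cytokinesis genes 6 rose, led by feo (3.50), scra (3.35, anillin) and tum (2.58), and fwd, a phosphatidylinositol 4-kinase gene, fell by 1.14.

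The 3 groups with RafGOF share their wild-type reference, and their values stand side by side as follows. Of the 89 genes 73 were higher than wild type with NotchDN, 63 in RafGOF alone (14.9% of all genes) and 26 with NotchIC (9.98%). The medians were 1.33, 1.02 and 0.29. In each case 1 gene was lower than wild type, where 12.1%, 10.1% and 6.77% of all genes were.

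Tested directly, 17 cell cycle genes were higher and 1 was lower with NotchDN than in RafGOF alone, where 0.818% of all genes were higher and 0.551% lower. With the replicate block 30 were higher and 1 lower, where 257 of all 11982 genes were higher and 383 lower. The 17 genes higher without the block were 7 of the 15 kinases, passenger and separation genes, 3 of the 22 spindle genes and 2 of the 7 cytokinesis genes. The rest were 3 of the 15 cyclins and regulators and 2 of the 30 replication genes. Cks30A was 2.32 higher than in RafGOF alone (adjusted p = 3.98e-05, limma), where it read 7.07, 7.13, 7.34 and 7.62. feo was 1.47 higher, pim 1.36, borr 1.31, tum 1.29, aurB 1.27, Nuf2 1.25, fzy 1.23, CycB 1.13 and Ts 1.01. Against NotchIC, 64 of the 89 were higher and 3 lower (6.09% and 5.47% of all genes). The calls of Cks30A, feo, pim and aurB against RafGOF alone held in all 8 fits that left out 1 array of these groups, and those of borr (7 lost), Nuf2, fzy and CycB (6 each), tum and Ts (4 each) did not (adjusted p up to 0.155, for CycB without NotchDN replicate 3).

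**Figure D3:**
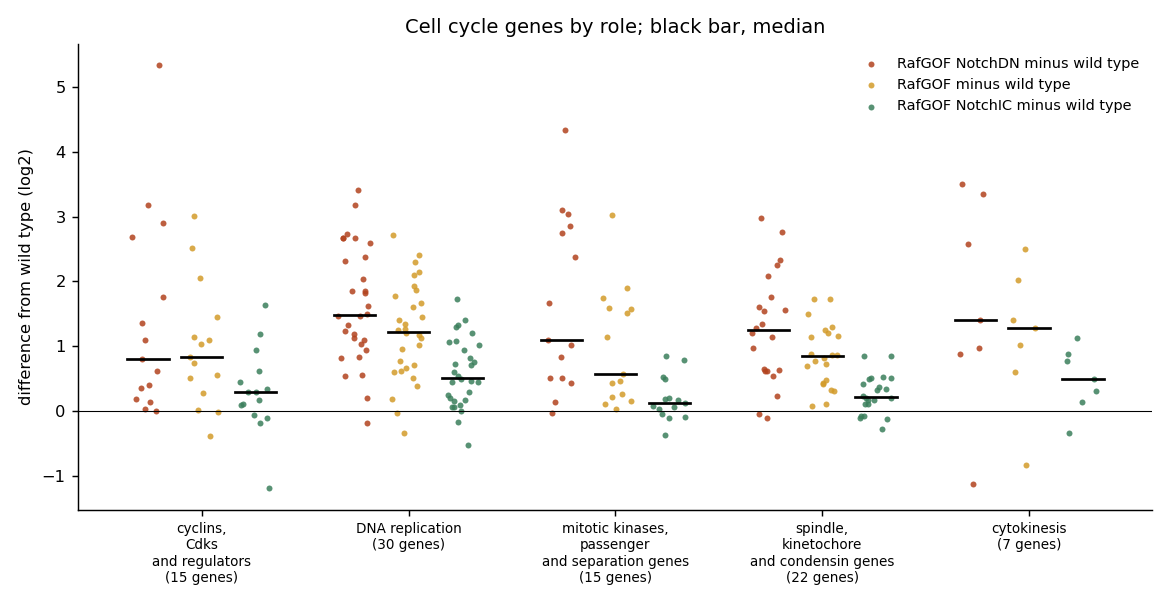
Difference from wild type (log2, vertical) of 89 cell cycle genes in 5 roles (horizontal), 1 point per gene for each of the 3 groups with RafGOF, with black bars at the medians. All 3 groups are set against the same 4 wild-type arrays. The NotchDN medians lie above the NotchIC medians in every role, and above the RafGOF medians in all roles but the cyclins.

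fzr (fizzy-related), which activates the anaphase-promoting complex outside mitosis and is needed for cells to replace mitosis by endocycles, behaved unlike the other cell cycle genes and was picked out after its values were seen. It read 7.27, 7.21, 7.24 and 7.46 in wild type, 7.06, 7.29, 7.18 and 7.66 with NotchDN, 7.84, 8.63, 8.40 and 8.70 in RafGOF alone and 8.20, 8.36, 8.63 and 8.77 with NotchIC. The NotchDN and wild-type arrays overlapped (0.00 ± 0.181, adjusted p = 0.999, limma), and both lay below every RafGOF and NotchIC array. The NotchDN arrays were 1.09 below RafGOF alone (adjusted p = 0.00637, limma) and 1.19 below NotchIC (adjusted p = 0.000561, limma). The call against RafGOF alone held in all 8 fits that left out 1 array (adjusted p up to 0.0319).

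Growth genes rose with the cell cycle. Of 23 ribosome biogenesis genes 18 rose, 0 fell and 5 did not pass, with a median of 0.79. These included Surf6 (1.83), Nph (1.79) and the nucleolar methyltransferase gene Fib (1.74, fibrillarin), and Polr1B (1.02), a subunit of RNA polymerase I. Fib read 8.97, 8.95, 8.63 and 8.85 in wild type and 10.30, 10.56, 10.76 and 10.75 with NotchDN, with no overlap. One gene counted here, Rrp1 (3.34), encodes in the fly a DNA repair endonuclease and not a ribosome factor. Of 15 nuclear import genes 9 rose and 0 fell, among them Pen, the GTPase Ran (1.26), its exchange factor Rcc1 (1.12) and the pore protein gene Nup154 (1.03), while Kap-alpha1 (0.10) and alphaKap4 (-0.10), the other importins of the alpha class besides Kap-alpha3 (0.42, passed), did not pass.

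Digestive enzyme genes fell. Of 52 measured genes 28 fell, 1 rose and 23 did not pass, and the list median was -1.04. Without the arrays numbered 2, 23 genes fell and 0 rose. The mean signal of the list was 11.03 to 11.20 over the wild-type arrays and 9.63 to 10.15 over the NotchDN arrays.

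Of 26 serine protease genes 11 fell. Jon25Bii read 13.19, 13.38, 13.81 and 13.05 in wild type and 8.97 to 10.88 with NotchDN, with no overlap, and fell by 3.68 ± 0.561 (adjusted p = 0.000161, limma). Jon25Bi (-2.69) and Jon44E (-2.64) followed after Ser8. The trypsin genes alphaTry (-0.10), betaTry (-0.15) and epsilonTry (0.01) did not pass.

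Of 18 carbohydrate enzyme genes 14 fell, and besides the mannosidases these were led by Mal-A4 (-3.01), a maltase, which read 12.53, 12.96, 12.44 and 12.38 in wild type and 9.54, 10.11, 9.38 and 9.24 with NotchDN. Of 8 lysozyme and lipase genes 3 fell, against 12.1% of all genes, among them the lipase gene Lip3 (-2.02). The lysozyme gene LysX was called higher (2.25), but its arrays overlapped (7.44 to 9.89 in wild type, 9.77 to 12.37 with NotchDN), and the call was lost without 5 of the 8 arrays (adjusted p up to 0.16 without NotchDN replicate 4) and without the arrays numbered 2 (adjusted p = 0.0619). Of the digestive enzyme genes 0 were called lower than in RafGOF alone by limma (2 at an unadjusted p under 0.05, and 1 called with the replicate block), and 2 serine protease genes, Jon25Biii (2.69) and epsilonTry (0.80), were higher than there without being called against wild type. These 2 calls were lost in 1 and 7 of 8 fits that left out 1 array (adjusted p up to 0.0571 and 0.0924, each without RafGOF replicate 3). Jon25Biii was at -0.98 against wild type (adjusted p = 0.24, limma), and its NotchDN arrays all lay below the wild-type arrays. It was called lower than wild type when only the 8 arrays compared were fitted.

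Enterocyte genes outside digestion were counted apart. Of 19 measured genes 5 fell, 0 rose and 14 did not pass, at a median of -0.15, against 12.1% of all genes lower and 14.6% higher. Without the arrays numbered 2 the count of falls was 3, closer to the share of all genes. The factors cad (caudal) and dve (defective proventriculus) fell by 0.99 and 1.21, and a second dve probe set was at -0.10 and did not pass. The zinc transporter gene Zip42C.1 was at -1.82, a call lost without the arrays numbered 2, the vitamin transporter gene Smvt at -0.95 and the sterol-binding gene Npc2d at -1.99. Npc2d read 11.34 on NotchDN replicate 1 and 8.65 to 9.30 on the others, and its call was lost without NotchDN replicate 2 or 3 (adjusted p up to 0.0595) and without the arrays numbered 2 (adjusted p = 0.086). The enterocyte factor nub (0.11) and the smooth septate junction genes Ssk (0.23), mesh (0.25) and Tsp2A (0.12), together with cora (0.28), did not pass.

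Of 18 genes that specify enteroendocrine cells 2 rose, 3 fell and 13 did not pass, near the shares of all genes (14.6% higher and 12.1% lower), and without the arrays numbered 2 the falls numbered 1. sc (scute), the proneural factor that starts the lineage, read 5.14, 5.28, 5.28 and 5.30 in wild type and 6.89, 7.18, 8.04 and 8.14 with NotchDN, above all wild-type arrays, and rose by 2.31 ± 0.221 (adjusted p = 1.87e-06, limma). The other riser was esg, a progenitor factor counted in this list too. pros (prospero), the factor of mature enteroendocrine cells, fell from 6.42 to 6.88 in wild type to 5.79 to 6.43 with NotchDN (-0.65 ± 0.161, adjusted p = 0.00773, limma), and its call was lost without the arrays numbered 2. tap (-0.61) and Ptx1 (-0.76) were called lower, and these calls were lost without 3 and 5 of the 8 arrays (adjusted p up to 0.0677 and 0.0848, each without NotchDN replicate 3). The call of Ptx1 was lost without the arrays numbered 2 as well (adjusted p = 0.0581). The other proneural genes ase (0.15), ac (-0.20) and l(1)sc (0.16) and the factors phyl (0.22), mirr (0.04), dimm (-0.18), nerfin-1 (-0.01) and Poxn (-0.20) did not pass.

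Of 26 genes of hormones and their processing 2 rose and 6 fell, against 14.6% and 12.1% of all genes. Without NotchDN replicate 3 the falls were 3, a share near that of all genes. The hormone genes that rose were ITP (1.63), the ion transport peptide, and Burs (1.13), a bursicon subunit. Of those that fell, CCHa2 was at -1.14 and AstC (allatostatin C) at -0.71, and leaving out single arrays ended the first call in 4 of 8 fits and the second in 7 (adjusted p up to 0.0877 without wild-type replicate 4 and 0.118 without NotchDN replicate 3). The call of AstC was also lost without the arrays numbered 2 (adjusted p = 0.178). Of the processing genes Pal2 (-1.41), 7B2 (-1.05) and Rab3 (-0.91) fell, and the hormone genes NPF (-0.28), Mip (-0.08), CCHa1 (-0.37) and Dh31 (-0.78) did not pass, though Dh31 passed with the replicate block.

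Detoxification and fuel metabolism fell too. Of 61 cytochrome P450 genes, which oxidise toxins and lipids, 37 fell, 2 rose and 22 did not pass, with a median of -0.74. Cyp6a8 read 10.10, 10.21, 9.57 and 9.80 in wild type and 6.34, 6.05, 5.92 and 6.33 with NotchDN, with no overlap. It fell by 3.76 ± 0.179 (adjusted p = 2.20e-09, limma), and Cyp309a1 fell by 2.88. The risers were Cyp305a1 (2.58) and Cyp6a14 (1.10).

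Of 39 genes of lipid and sugar metabolism 20 fell and 0 rose, among them Pdk (-1.47), Pgi (-1.26) and Hex-C (-1.17) of glycolysis and its control, the peroxisomal oxidase gene Acox57D-d (-1.34) and Dgat2 (-1.11) of fat synthesis. Of 30 genes of the proton pump V-ATPase 9 fell and 0 rose, against 12.1% and 14.6% of all genes. With the replicate block 19 fell and 0 rose, where 2081 of all 11982 genes fell and 2455 rose. The falls were led by Vha100-5 (-1.19), whose call was lost without NotchDN replicate 4 (adjusted p = 0.055, limma). Of 25 stress and redox genes 4 rose, a share near the 14.6% of all genes, and 7 fell, against 12.1% of all genes. The glutathione transferase genes moved both ways, with GstD3 at 2.56 and GstD5 at -2.05. GstD3 read 6.89 to 7.79 in wild type and 9.45 to 10.25 with NotchDN, and GstD5 6.84 to 7.86 and 5.06 to 5.44. As members of one family with similar sequences, their probe sets may share signal.

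**Figure D4:**
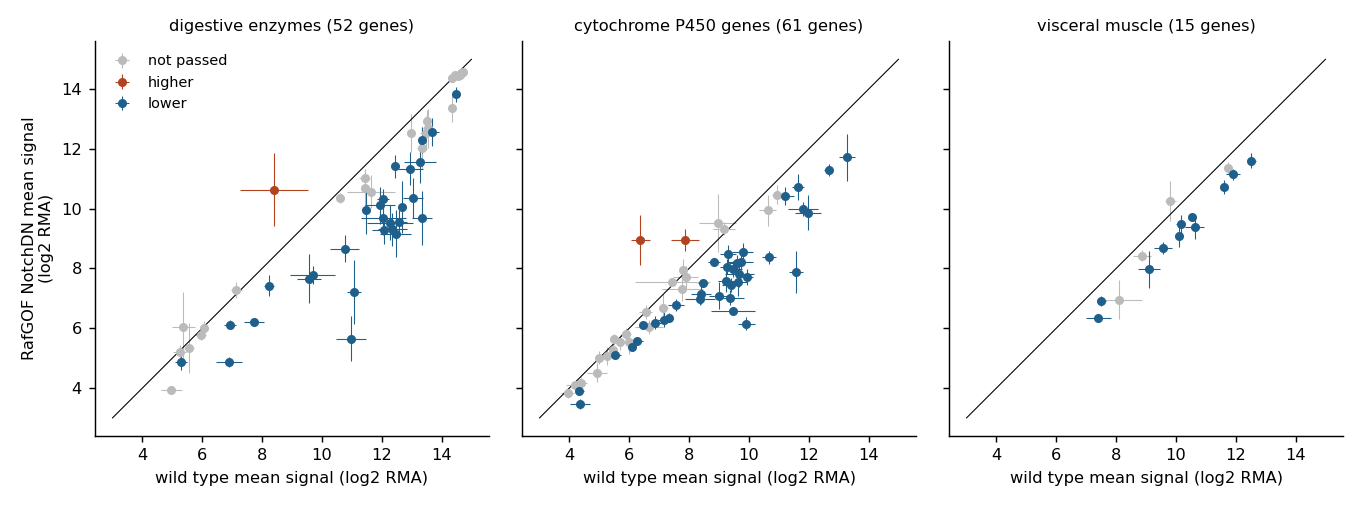
Mean signal with NotchDN (vertical) against mean signal in wild type (horizontal), both log2 RMA, for 52 digestive enzyme genes, 61 cytochrome P450 genes and 15 visceral muscle genes. Bars are SDs of 4 arrays, blue and red points were called lower and higher, and the line marks equal signal. Most points lie on or below the line in each panel.

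Of 35 genes of matrix, integrins and cytoskeleton 18 rose, 2 fell and 15 did not pass. Integrins, which anchor cells to the basement membrane, rose with scb (2.19), mew (1.81) and mys (1.32), while the gene if, another alpha subunit, was at -0.80, a call lost without 5 of the 8 arrays (adjusted p up to 0.137 without wild-type replicate 4) and without the arrays numbered 2 (adjusted p = 0.0656). Laminin genes rose as well, with LanB1 (1.67) and LanA (1.39), and among cytoskeletal genes betaTub60D rose by 2.82 and the filamin gene cher by 2.34. betaTub60D read 10.28 on NotchDN replicate 1 and 12.27 to 12.65 on the others, all above wild type (8.54 to 9.86).

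Of 14 factors of gut regions 7 fell and 0 rose, among them ct (-1.92), odd (-1.36) and bowl (-1.12) besides dve, and a second ct probe set gave -0.20 (adjusted p = 0.742, limma). Of 22 antimicrobial and IMD genes 2 rose and 4 fell, near the shares of all genes (14.6% higher and 12.1% lower), and without the arrays numbered 2 the counts were 0 and 3. The peptidoglycan recognition protein genes PGRP-LB (-1.67), PGRP-SC2 (-1.15) and PGRP-LE (-0.65), from the recognition and negative regulator part of the list, fell. The peptide genes Drsl3 (1.93), Drsl2 (1.75) and AttD (-2.28) were called with overlap or wide spread, and leaving out single arrays ended these calls in 6, 5 and 5 of 8 fits (adjusted p up to 0.105, 0.121 and 0.0781). All 3 calls were lost without the arrays numbered 2 (adjusted p of 0.184, 0.2 and 0.0741). Of the rest, 3 of 19 JNK and cell death genes rose and 1 fell, 1 of 8 JAK/STAT genes rose, 2 of 11 Hippo genes rose, and 1 of 14 genes of the Wnt, Hedgehog and BMP pathways rose while 2 fell, shares near or below those of all genes. These include egr (0.79), the fly tumour necrosis factor, with a second probe set at 0.16 that did not pass, its receptor gene wgn (-0.68), the Hippo kinase gene hpo (0.88) and the BMP target gene Dad (-0.66).

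Tissues that a dissected midgut carries along were measured with their own lists. Of 15 visceral muscle genes 11 fell and 0 rose, at a median of -0.89, among them Act87E (-1.24), Mlc2 (-1.12) and Obsc (-1.07). The mean signal of this list was 9.84 to 10.11 over the wild-type arrays and 9.09 to 9.27 over the NotchDN arrays. Of 12 Malpighian tubule genes 6 fell, led by the transporter genes Oatp58Db (-1.58), Prestin (-1.48) and Nha1 (-1.27), with list means of at least 8.88 in wild type and of 8.25 to 8.79 with NotchDN. Of 7 tracheal genes 2 fell, against 12.1% of all genes. Of 11 fat body genes 1 fell (fon) and of 13 hemocyte genes 1 (NimC4), shares below the 12.1% of all genes called lower. These 3 lists had wild-type and NotchDN list means of 6.60 to 6.81 and 6.41 to 6.71, 6.88 to 7.97 and 6.80 to 7.49, and 5.62 to 5.73 and 5.41 to 5.55. Of 18 ovary and 8 neuron genes 0 passed by limma, and at an unadjusted p under 0.05 1 ovary gene was lower and 1 neuron gene higher. What part the fall of muscle and tubule signal has in the other falls was not tested.

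**Figure D5:**
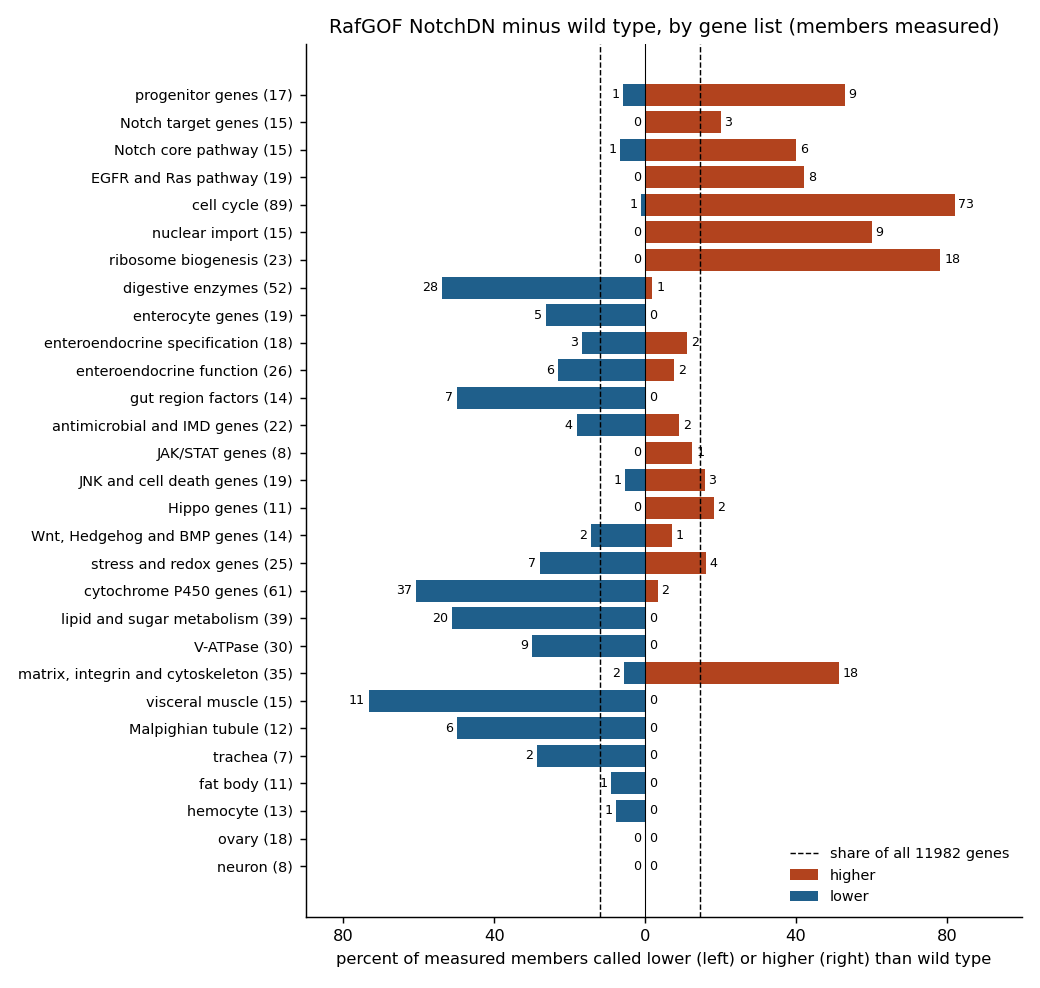
Percent of measured members called lower (left) or higher (right) than wild type in each of 29 gene lists, with the number of genes at the bar ends and the number measured in brackets. Dashed lines mark the shares of all 11982 genes, 12.1% lower and 14.6% higher. Among the lists past the right line are cell cycle, ribosome biogenesis, nuclear import, progenitor and matrix genes, and among those past the left are muscle, P450, digestive enzyme, metabolism, region and tubule genes.

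The NotchDN midguts were then set against RafGOF alone, which carries the same Raf allele, to see where they differ from it. Few features did: 121 probe sets were higher (0.645%) and 83 lower (0.442%). By gene, 98 (0.818%) were higher and 66 (0.551%) lower. Against NotchIC 870 probe sets were higher (4.64%) and 767 lower (4.09%). With the replicate block 323 were higher and 469 lower than in RafGOF alone, and 1542 and 1958 against NotchIC. Against RafGOF alone the rises numbered 68 to 79 without NotchDN replicate 2, 3 or 4 or RafGOF replicate 3. The falls numbered 29 to 41 without NotchDN replicate 2 or 3 or RafGOF replicate 2 or 3, and 30 without the arrays numbered 2. Against NotchIC the falls were 402 without NotchDN replicate 3 and 442 without NotchIC replicate 3.

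Among genes called against both wild type and RafGOF alone, the largest differences from RafGOF alone were those of Drsl2 (2.79), Cks30A (2.32), kon (-2.06), Pen (1.89), Cyp6a9 (1.67), bw (1.65), kuk (1.63) and kirre (1.62). kirre, an adhesion protein of the immunoglobulin family, read 4.69, 4.48, 4.58 and 4.46 in wild type, 5.87, 5.64, 5.81 and 5.46 in RafGOF alone, 7.65, 7.10, 7.35 and 7.16 with NotchDN and 4.85, 4.65, 4.62 and 4.81 with NotchIC. Its NotchDN arrays lay above all 12 others (2.76 ± 0.123 over wild type, adjusted p = 9.46e-10, and 1.62 over RafGOF alone, adjusted p = 5.38e-06, limma). The nuclear envelope protein gene kuk (kugelkern) and the eye-pigment transporter gene bw (brown) were also highest with NotchDN, at 2.73 and 2.33 over wild type. kon went the other way, at 6.09 to 6.61 in wild type, 8.71 to 9.95 in RafGOF alone and 6.59 to 7.97 with NotchDN. Its rise over wild type (0.92) was lost without 5 of the 8 arrays (adjusted p up to 0.139 without NotchDN replicate 4), whereas its fall from RafGOF alone (adjusted p = 0.00263, limma) held in all 8 fits that left out 1 array. The differences of Drsl2 and Pen from RafGOF alone were lost in 5 of 8 such fits each (adjusted p up to 0.0684 and 0.0779).

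Of the progenitor and enteroendocrine genes above, 3 were also higher than in RafGOF alone. These were sc (1.35, adjusted p = 0.00634), zfh2 (1.21, adjusted p = 0.00861) and spdo (1.12, adjusted p = 0.00196, limma), and all 3 calls held in each of the 8 fits that left out 1 array. With the replicate block esg (0.89, adjusted p = 0.00392) and Egfr (0.77, adjusted p = 0.00145) were called higher there too and Pvr (-0.57, adjusted p = 0.0313) lower. spdo read 6.77, 6.51, 6.55 and 6.39 in wild type, 7.02, 6.78, 6.63 and 6.32 in RafGOF alone and 7.69, 8.08, 7.91 and 7.55 with NotchDN, so wild type and RafGOF alone overlapped and NotchDN lay above both. Delta was at 1.31 over RafGOF alone and did not pass (adjusted p = 0.0747, limma, and 0.0174 with the replicate block), though its second probe set did (adjusted p = 0.00944).

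Against NotchIC, the largest differences among genes called against wild type were those of Pen (5.01), Cks30A (4.89), LManIII (-4.30), borr (3.48), cmet (3.47), feo (3.19), Srg2 (-3.17) and jumu (3.16). LManIII read 8.83, 12.30, 9.20 and 9.48 with NotchIC, so all NotchIC arrays lay above all NotchDN arrays. With NotchIC, Pen (0.34), Cks30A (0.44), cmet (0.13) and feo (0.31) were not called against wild type.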

How the data were processed

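Total RNA from whole midguts of female flies was hybridised to 16 Affymetrix arrays of the Drosophila Genome 2.0 design, 4 for each of 4 groups named in the sample titles. The deposited values are log2 signals, made by the authors with RMA, per the submitters' processing notes (which software ran it is not given in the sources used here). RMA shares information across arrays, so the values of one array depend on the others. No counts exist, and precision is limited by the number of arrays. Whether a group's arrays come from separate animals, pools or repeats is not stated in the labels, so p-values measure only the spread between these arrays.

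Of 18952 probe sets, 183 Affymetrix controls were set aside. Names came from GEO's platform annotation: 13647 of the tested probe sets carry 1 symbol, 402 several and 4720 none, and only the first kind was named. Each of 11982 genes was represented by its brightest probe set, judged by the mean of all 16 arrays. limma 3.58.1 in R 4.3.3 fitted 1 mean per group over all 16 arrays with empirical Bayes (12 residual degrees of freedom), and p-values were adjusted by the Benjamini-Hochberg method over the 18769 tested probe sets, two-sided, with calls at an adjusted p under 0.05. On simulated data for NotchDN against wild type, with 200 changed among the 18769 probe sets, 89% of changes of 1 log2 unit and 99% of changes of 2 were recovered, with 8 false calls. The simulated arrays varied independently and few probe sets changed, unlike in the real data. These rates check the fit and do not give the error rates of the calls above.

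Arrays of the same number deviated together from their group means, with correlations of 0.155 to 0.668 for NotchDN and wild type, 0.494 to 0.785 for NotchDN and RafGOF and 0.157 to 0.529 for NotchDN and NotchIC. The labels do not say what the number stands for, and the blocked fit is an alternative.

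The alternatives were the replicate block, the compared arrays alone, each array left out in turn, the arrays numbered 2 left out, quantile normalization again, a trended robust fit, the mean over a gene's probe sets, a filter on dim probe sets (mean under 5) and a 2-fold minimum. The 29 gene lists hold 820 entries, 670 of them measured. The lists and the comparison were chosen with earlier results of these data known. Named genes are the 10 largest rises and falls among called genes whose arrays did not overlap, the 8 largest differences from each other RafGOF group, passing over genes known only by a CG or CR number, and the leading members of the lists, and further list members that did not pass, fzr and the genes of the last section were named after their values were seen.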

Additional observations from a re-analysis of the deposited data

Results flagged for a closer look

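Groups of 4 arrays were searched for a single array far from the other 3, over each gene named above in wild type and with NotchDN. Of 412 such groups 24 held one, where chance gives about 1 in 20. On NotchDN replicate 1 the log2 signal stood apart for Det (8.79), Nuf2 (6.80), Ts (9.01), betaTub60D (10.28) and fng (6.87). On NotchDN replicate 2 the log2 signal stood apart for Dh31 (6.49) and csw (7.92). On NotchDN replicate 3 the log2 signal stood apart for phyl (4.99). On NotchDN replicate 4 the log2 signal stood apart for Lip3 (5.11) and numb (9.58). On wild-type replicate 1 the log2 signal stood apart for E(spl)m5-HLH (5.598), Ote (6.20), dUTPase (7.98), sc (5.14) and tum (5.80). On wild-type replicate 2 the log2 signal stood apart for 7B2 (8.05), Kap-alpha1 (8.94), Prestin (10.86), RPA1 (9.43), dx (7.74) and mesh (12.10). On wild-type replicate 3 the log2 signal stood apart for nub (10.49). On wild-type replicate 4 the log2 signal stood apart for Krn (7.9999) and Nedd4 (8.24).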

How the results depend on the processing

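Of the 206 named genes 138 were called against wild type. No named gene changed direction under an alternative while called in that fit or in the main one. Changes of sign in genes called in neither fit were not counted. When single arrays were left out, 17 of these lost their call in at least 1 fit, and under another alternative 16 did. With the replicate block none lost its call, 10 genes gained one, and the values it moved stand beside their results; it changed no other call of a named gene against wild type. Asking for at least 2-fold left 695 probe sets higher and 673 lower than wild type. Leaving out 1 array gave 1719 to 2377 higher and 1361 to 1745 lower. Against RafGOF alone, fitting only the 8 arrays compared gave 19 higher and 8 lower, the replicate block 323 and 469, and leaving out 1 array 68 to 174 higher and 29 to 97 lower, with 30 lower without the arrays numbered 2. Against NotchIC, the replicate block gave 1542 higher and 1958 lower, and leaving out 1 array 587 to 998 higher and 402 to 771 lower. The causes of these shifts were not tested, except that fewer arrays leave fewer degrees of freedom. List counts kept their side: cell cycle 69 to 76 higher, digestive enzymes 21 to 33 lower, P450 genes 32 to 41 lower and visceral muscle 9 to 14 lower. Genes near the floor of the arrays and probe sets with no single symbol limit what could be named.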

Other observations

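The genes in these paragraphs were picked after their values were seen, and no list of them was tested. Augmin is the complex that nucleates microtubules inside the spindle. Its subunits were called higher than wild type in 8 of 8 measured cases (limma, n = 4 arrays per group), where 14.6% of all genes were. The values were 2.85 for wac, 2.76 for msd5, 2.17 for msd1, 1.98 for dgt4, 1.69 for dgt2, 1.34 for dgt5, 1.02 for dgt3 and 0.67 for dgt6. Between NotchDN and RafGOF alone, msd1 (1.13), msd5 (0.98), dgt5 (0.95), dgt4 (0.83) and dgt6 (0.63) were higher in every fit that left out 1 array, and wac (0.92) in 3 of 8, while dgt2 (0.60, adjusted p = 0.101) and dgt3 (0.56, adjusted p = 0.31) were not called there. rst, a relative of the adhesion protein kirre, read 4.17, 4.68, 4.24 and 4.38 in wild type, 5.30, 6.12, 6.12 and 6.03 in RafGOF alone, 6.84, 7.27, 7.53 and 7.38 with NotchDN and 4.66, 4.36, 4.85 and 4.50 with NotchIC. Its NotchDN arrays lay above all others (1.36 over RafGOF alone, adjusted p = 0.00215, limma).

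Counted by calls, 86 of the 11982 genes were higher with NotchDN than in each of the other 3 groups and 23 were lower. A further 24 of the 11982 were lower than in RafGOF alone without being called against wild type, fzr among them. Of these 24, 17 were called higher in RafGOF alone than in wild type. A missed threshold against wild type does not show equal levels. The cytochrome P450 gene Cyp4p1 was at 0.15 against wild type and -2.61 against RafGOF alone, the chitinase gene Cht2 at 0.01 and -1.997, Erasp at 0.68 and -2.61, and the peroxiredoxin gene Prx6c at 0.70 and -1.73, and these 4 differences from RafGOF alone held in every fit that left out 1 array.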
